A study of Mus musculus with 8 samples.

Results

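RNA levels of 10 genes of the major histocompatibility complex (MHC) class I pathway were compared between trafficked maternal cells and recipient cells of mouse pups after in-utero transplantation (IUT). They were taken by name: the heavy chains H2-K1, H2-D1, H2-Q7 and H2-T23, the light chain B2m, the peptide transporter genes Tap1 and Tap2, Tapbp, the immunoproteasome gene Psmb8 and the transcriptional activator Nlrc5. All 10 were found among the 52784 genes of the count table, of which 25066 had a count in at least 1 library.

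MHC class I molecules display peptides from inside a cell to CD8 T cells. Proteasomes cut proteins into peptides, and in immune cells or after interferon the subunits Psmb8, Psmb9 and Psmb10 replace the constitutive subunits Psmb5, Psmb6 and Psmb7. The transporter formed by Tap1 and Tap2 carries the peptides into the endoplasmic reticulum, where tapasin, the product of Tapbp, holds the transporter beside empty class I molecules. A heavy chain reaches the cell surface with B2m and a peptide. Nlrc5 activates the promoters of class I genes. Nearly all nucleated cells carry class I molecules, lymphocytes at high levels. Donor and recipient cells that differ in these molecules are targets of allogeneic T cells and NK cells.

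The pups were F1 offspring of C57BL/6 (CD11c-DTR) dams and BALB/c males, aged 1 week. In CD11c-DTR mice the Itgax promoter drives the diphtheria toxin (DT) receptor, so that DT removes CD11c-positive dendritic cells (DC) and any other cells that use this promoter. Dams received DT at 5 ng/g (DC-depleted) or saline (DC control) on embryonic day 13, and each fetus received 5000000 bone marrow mononuclear cells on embryonic day 14, from C57BL/6 donors in maternal donor IUT (mIUT) or from BALB/c donors in paternal donor IUT (pIUT). The 4 groups were uninjected, DC control mIUT, DC control pIUT and DC-depleted pIUT. Uninjected pups came from dams given either DT or saline, in proportions not given in the sources used here. Cells of the pups of a group were pooled, and 1 library was made from trafficked maternal cells and 1 from recipient cells, 8 libraries in all. No group had a second library, so a difference between groups below is one between 2 pools with no test, and intervals cover counting error only. Origin alone was tested, over the 4 groups.

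The sort itself used class I molecules, H2K-b for maternal cells and H2K-d for recipient cells. H2K-b is the protein of the H2-K1 allele of C57BL/6 mice and H2K-d that of BALB/c mice, and F1 cells carry both. Donor cells of mIUT carry H2K-b and donor cells of pIUT carry H2K-d. Reads were assigned to a C57BL/6 genome, which holds the b alleles, so reads of d alleles in recipient cells may be counted less completely. The effect of the allele on the counts was not tested. RNA of other origin was present in libraries labelled maternal. The 4 Y-linked genes on the list were all at 0 in maternal cells of uninjected pups, while their summed level was 118, 29.3 and 29.9 CPM in the maternal libraries of DC control mIUT, DC control pIUT and DC-depleted pIUT (CPM are counts scaled by library total and TMM factor). H2-Ea, which C57BL/6 mice do not transcribe, was at 0 in the maternal libraries of uninjected and DC control pIUT pups and at 8.03 and 5.39 CPM in those of DC control mIUT and DC-depleted pIUT.

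Library totals ranged from 38543457 to 47965130 counts. Of the genes with at least 10 CPM in each of the other 7 libraries, 9.51% were missing (under 1 CPM) in recipient cells of uninjected pups and 4.86% in maternal cells of DC control mIUT, against 0 to 1.26% in the other 6 libraries. The recipient uninjected library enters each comparison of recipient cells with uninjected pups. The libraries also differed in cell content. The summed level of 9 measured erythroid genes ran from 210.2 CPM in recipient DC control mIUT to 180900 CPM in maternal DC-depleted pIUT, that of 10 granulocyte genes from 1686 CPM in maternal DC control pIUT to 274700 CPM in recipient DC control mIUT, and that of 8 hepatocyte genes from 76.8 CPM in recipient DC control pIUT to 14280 CPM in recipient uninjected. The 5 leukocyte genes Ptprc, Coro1a, Laptm5, Cd53 and Cd52 summed to 8559, 7019, 1560 and 573.5 CPM in maternal cells and to 3950, 11670, 5712 and 3930 CPM in recipient cells. Here and below, 4 values of an origin are in the order uninjected, DC control mIUT, DC control pIUT and DC-depleted pIUT. In these bulk libraries fewer cells of a type and less RNA per cell cannot be told apart.

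Of the 10 genes, 8 lie on chromosome 17 (positions in GRCm39). The heavy chain genes H2-K1 (chr17:34214987-34219321, minus strand), H2-D1 (chr17:35481691-35486475, plus strand), H2-Q7 (chr17:35658131-35662749, plus strand) and H2-T23 (chr17:36340229-36345571, minus strand) span the MHC. Tap1 (chr17:34405996-34416199), Psmb8 (chr17:34416690-34420428) and Tap2 (chr17:34422501-34435829) follow each other on the plus strand, and Tapbp lies nearby (chr17:34134873-34148267, plus strand). B2m is outside the MHC (chr2:121977957-121983594, plus strand), as is Nlrc5 (chr8:95160984-95253900, plus strand). The start sites of Tap1 and of the immunoproteasome gene Psmb9 are 363 bases apart.

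The promoters of H2-K1, H2-Q7 and Tap1 are shown because H2-K1 and H2-Q7 share motifs while their levels across libraries were far apart, and Tap1 belongs to the loading genes. Each is the 250 bases before the start site of the canonical transcript, read 5′ to 3′ on the strand of the gene from GRCm39: H2-K1 at chr17:34219322-34219571 (minus strand), H2-Q7 at chr17:35657881-35658130 (plus strand) and Tap1 at chr17:34406125-34406374 (plus strand). Capitals mark a kappa B motif of 10 letters, and the CCAAT box, which reads ATTGG where it lies on the other strand.
H2-K1: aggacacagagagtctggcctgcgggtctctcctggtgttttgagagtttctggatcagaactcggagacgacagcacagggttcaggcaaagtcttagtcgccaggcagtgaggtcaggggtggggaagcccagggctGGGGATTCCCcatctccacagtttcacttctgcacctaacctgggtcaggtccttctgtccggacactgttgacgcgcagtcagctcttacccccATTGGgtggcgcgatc
H2-Q7: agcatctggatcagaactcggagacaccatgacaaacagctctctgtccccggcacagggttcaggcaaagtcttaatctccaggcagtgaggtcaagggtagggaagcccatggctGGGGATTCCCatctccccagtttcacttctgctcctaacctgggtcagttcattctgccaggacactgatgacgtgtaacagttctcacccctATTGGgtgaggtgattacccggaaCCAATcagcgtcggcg
Tap1: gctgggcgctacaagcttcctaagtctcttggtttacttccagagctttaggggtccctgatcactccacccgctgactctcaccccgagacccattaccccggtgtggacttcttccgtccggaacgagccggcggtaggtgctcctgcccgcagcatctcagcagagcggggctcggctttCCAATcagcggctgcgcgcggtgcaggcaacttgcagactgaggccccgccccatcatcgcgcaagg
The kappa B motif, GGGGA followed by TTCCC, was at -111 to -102 in H2-K1 and at -133 to -124 in H2-Q7, where -1 is the base before the start site, and in none of the other 8 promoters. It occurred on either strand in 0.106% of 21770 protein-coding promoters of the same length. CCAAT occurred on either strand in the promoters of H2-K1, H2-Q7, Tap1 and Tapbp, and in 36.5% of all. The core of the interferon-stimulated response element, GAAA followed by any 2 bases and GAAA, was searched on both strands and occurred in 0 of the 10 windows and in 3.32% of all. The motifs searched do not overlap. A match or its absence describes these letters only. Other forms of the interferon-stimulated response element were not searched, so 0 matches do not show that a promoter lacks one.

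The classical heavy chains were highest in maternal cells of uninjected pups and lowest in maternal cells of DC-depleted pIUT. H2-K1, a classical heavy chain that presents peptides to CD8 T cells, was at 3361, 541.5, 222.7 and 127.8 CPM in maternal cells and at 1180, 468.9, 567.5 and 453.7 CPM in recipient cells. H2-D1, the other classical heavy chain, was at 8680, 2987, 866.2 and 351.5 CPM in maternal cells and at 4055, 4223, 2418 and 1555 CPM in recipient cells. In maternal cells each transplanted group was over 2-fold lower than the uninjected library for both genes. In recipient cells H2-D1 of DC control mIUT was within 2-fold of uninjected (log2 fold change 0.06, and -0.09 with DESeq2 size factors), while H2-K1 was over 2-fold lower (-1.33). The H2-K1 to H2-D1 ratio within a library, corrected for transcript length and thus free of the scaling between libraries, ranged from 0.1452 in recipient DC control mIUT to 0.5063 in maternal uninjected cells, so H2-D1 was the more abundant per length in every library.

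The nonclassical heavy chains did not share a single pattern. H2-T23 encodes Qa-1, which presents leader peptides of other class I molecules to CD94/NKG2 receptors of NK cells. It was at 663.5, 253.4, 109 and 68.2 CPM in maternal cells and at 379.3, 365.3, 269.8 and 148.8 CPM in recipient cells, an order close to that of H2-D1. H2-Q7, which encodes Qa-2 molecules, was at 719, 76.34, 16.45 and 0.3028 CPM in maternal cells and at 93.65, 3.836, 24.75 and 21.27 CPM in recipient cells. Its range was by far the widest of the genes detected in all libraries, with 27979 counts in maternal uninjected cells and 10 counts in maternal DC-depleted pIUT.

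Heavy chain genes are near copies of each other, and reads that fit several were divided between them by estimate. Of the 25-base words of the canonical transcript, 59.3% in H2-Q7, 56.8% in H2-T23, 37.2% in H2-D1 and 33.0% in H2-K1 also occur in transcripts of other genes, and H2-Q7 shares 36.5% with H2-Q5 and 30.0% with H2-Q6. The single-gene values of H2-Q7 are therefore uncertain, and the sum of H2-Q6 and H2-Q7 is given beside them: 1050, 84.32, 24.71 and 2.15 CPM in maternal cells and 169, 12.83, 81.57 and 54.2 CPM in recipient cells. Maternal uninjected cells were again highest and maternal DC-depleted pIUT lowest. H2-Q5 itself was at 7.375 CPM or below in all 8 libraries, and the sum of the 3 genes was 1057, 88.07, 28.69 and 2.483 CPM in maternal cells and 169.9, 17.71, 87.97 and 57.81 CPM in recipient cells. Of all the class I heavy chain genes, 16 were summed, which does not depend on how reads were divided among them. This sum was 14120, 4055, 1309 and 616.5 CPM in maternal cells and 5907, 5323, 3723 and 2364 CPM in recipient cells, of which H2-D1 made 57.01% to 79.33%.

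B2m, the light chain that all of these heavy chains need, was at 3679, 1417, 373.4 and 234.9 CPM in maternal cells and at 1612, 896.7, 777.3 and 618.3 CPM in recipient cells. It shares 0.0942% of its 25-base words with another gene and had whole counts in all 8 libraries, so its values hardly depend on how reads were divided. In both origins the uninjected library was highest and DC-depleted pIUT lowest. The order of B2m over the 8 libraries was close to that of H2-K1 and H2-T23. Over the 3311 genes of at least 10 CPM in all 8 libraries, the smallest root mean square distance of centred log2 levels from B2m was that of H2-K1 (0.365), followed by H2-T23 (0.396), Slc50a1 (0.426), H2-D1 (0.442) and Jund (0.483). Tapbp was at rank 8, Tap1 at rank 227 and Psmb8 at rank 555.

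**Figure D1:**
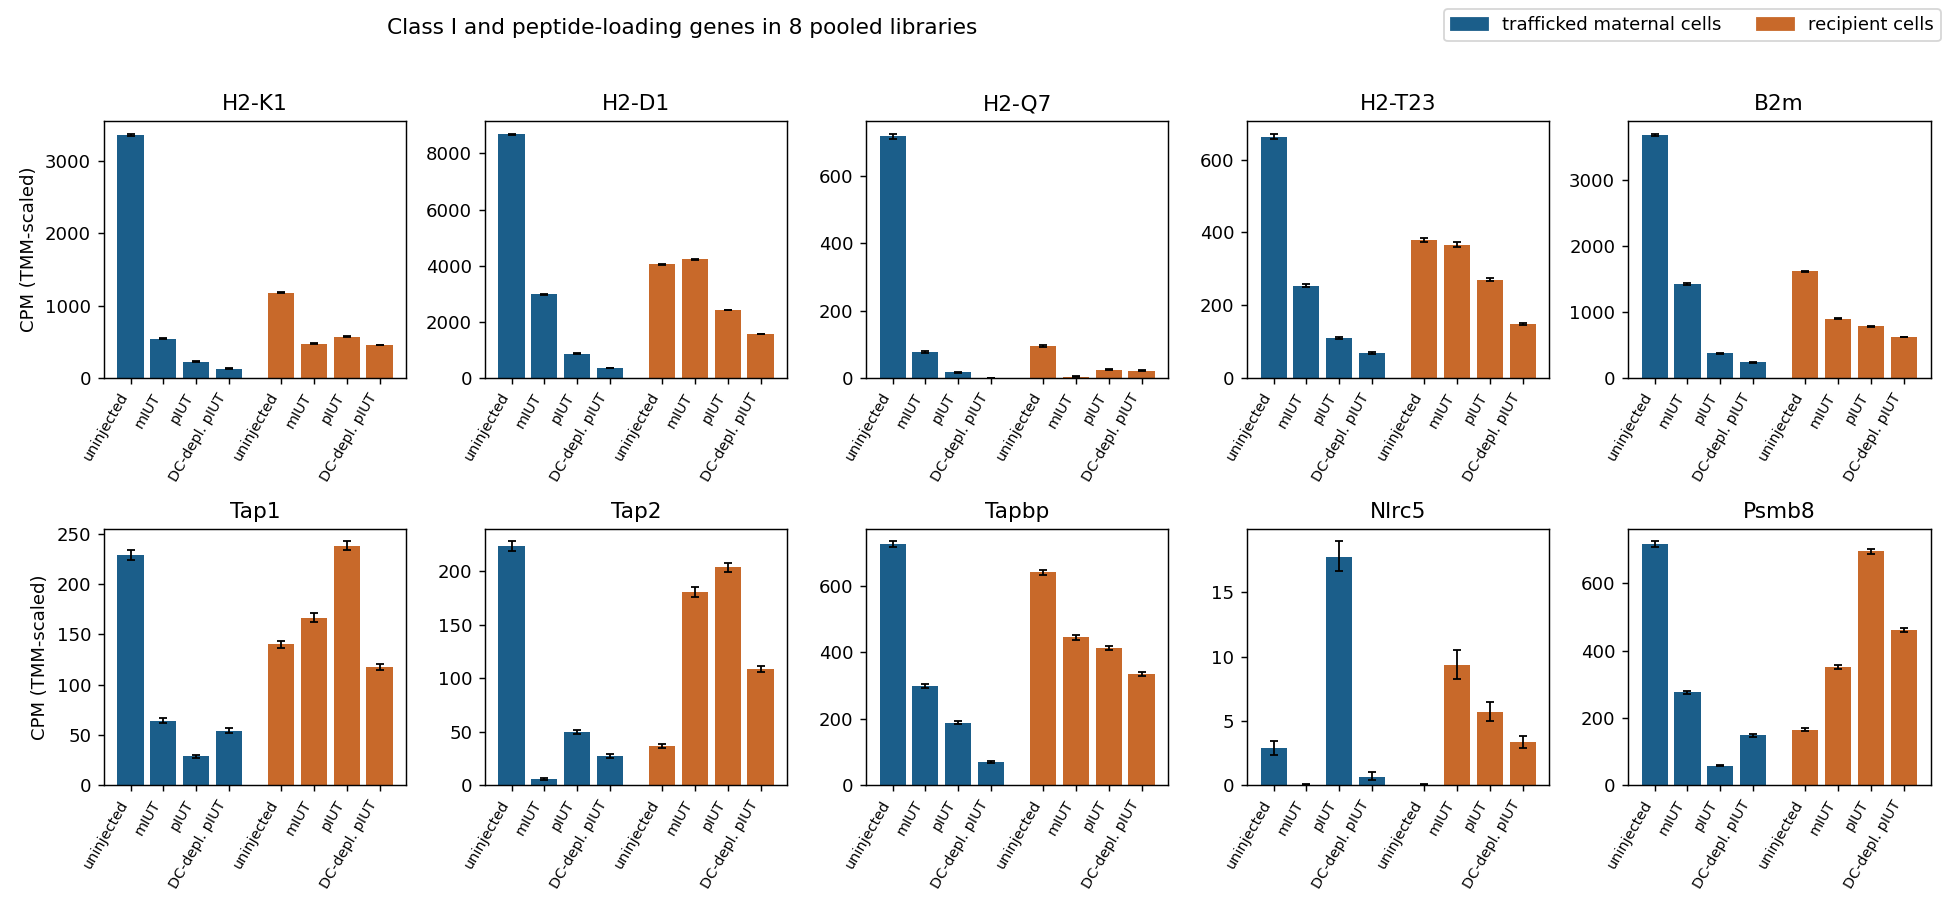
Levels of the 10 genes in CPM (vertical axes, each from 0) in the 8 pooled libraries, with bars in blue for trafficked maternal cells and in orange for recipient cells, and error bars for 95% Poisson intervals of the counts. Heavy chains and B2m were highest in maternal cells of uninjected pups, while Tap1, Tap2 and Psmb8 in recipient cells were highest in DC control pIUT, at 238, 204.1 and 694.4 CPM.

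The peptide transporter genes differed from the heavy chains in recipient cells. Tap1, the transporter subunit with the start site next to Psmb9, was at 228.9, 64.02, 28.78 and 54.42 CPM in maternal cells and at 140.1, 166.4, 238 and 117.5 CPM in recipient cells. Tap2, its partner subunit, was at 223.7, 6.147, 50.04 and 27.56 CPM in maternal cells and at 36.95, 180.9, 204.1 and 108.7 CPM in recipient cells. Recipient cells of DC control pIUT held the most Tap1 of the 8 libraries and, for Tap2, were below maternal uninjected cells only. The ratio of Tap1 to Tap2 per length was between 0.7366 and 1.493 in 5 libraries, and was 2.529 in maternal DC-depleted pIUT, 4.855 in recipient uninjected and 13.34 in maternal DC control mIUT, where Tap2 had 238 counts. The last 2 of these are the libraries with the most missing genes.

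Tapbp, whose product tapasin edits the peptide cargo, was at 725.1, 299, 188.7 and 71.29 CPM in maternal cells and at 639.4, 444.4, 412.3 and 334.5 CPM in recipient cells. Within each origin its order was that of H2-T23, from uninjected down to DC-depleted pIUT. Recipient and maternal uninjected cells were closest for this gene (log2 fold change -0.18).

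Psmb8, the immunoproteasome subunit that takes the place of Psmb5, was at 716.3, 275.7, 58.52 and 148 CPM in maternal cells and at 165.6, 350.9, 694.4 and 461.6 CPM in recipient cells. Among recipient libraries the uninjected library was lowest for Psmb8, while it was highest for H2-K1, H2-Q7, H2-T23 and B2m. The ratio of immunoproteasome to constitutive subunit within a library shows this without scaling between libraries. Per length, Psmb8 to Psmb5 was 3.966, 1.569, 0.2981 and 0.2387 in maternal cells and 1.043, 2.615, 3.261 and 2.116 in recipient cells. Psmb9 to Psmb6 was 0.5931, 0.4616, 0.09125 and 0.03913 in maternal cells and 0.04575, 0.57, 0.4189 and 0.2976 in recipient cells. Psmb10 to Psmb7 was 2.414, 1.621, 0.1667 and 0.3364 in maternal cells and 0.4161, 0.6096, 0.8763 and 1.136 in recipient cells. For the 3 pairs, each maternal pIUT library was below both other maternal libraries, and recipient uninjected cells were below the other recipient libraries. In maternal DC-depleted pIUT the low ratios went with high constitutive subunits: Psmb6 was at 1244 CPM there, against 335.2 CPM in maternal DC control pIUT.

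**Figure D2:**
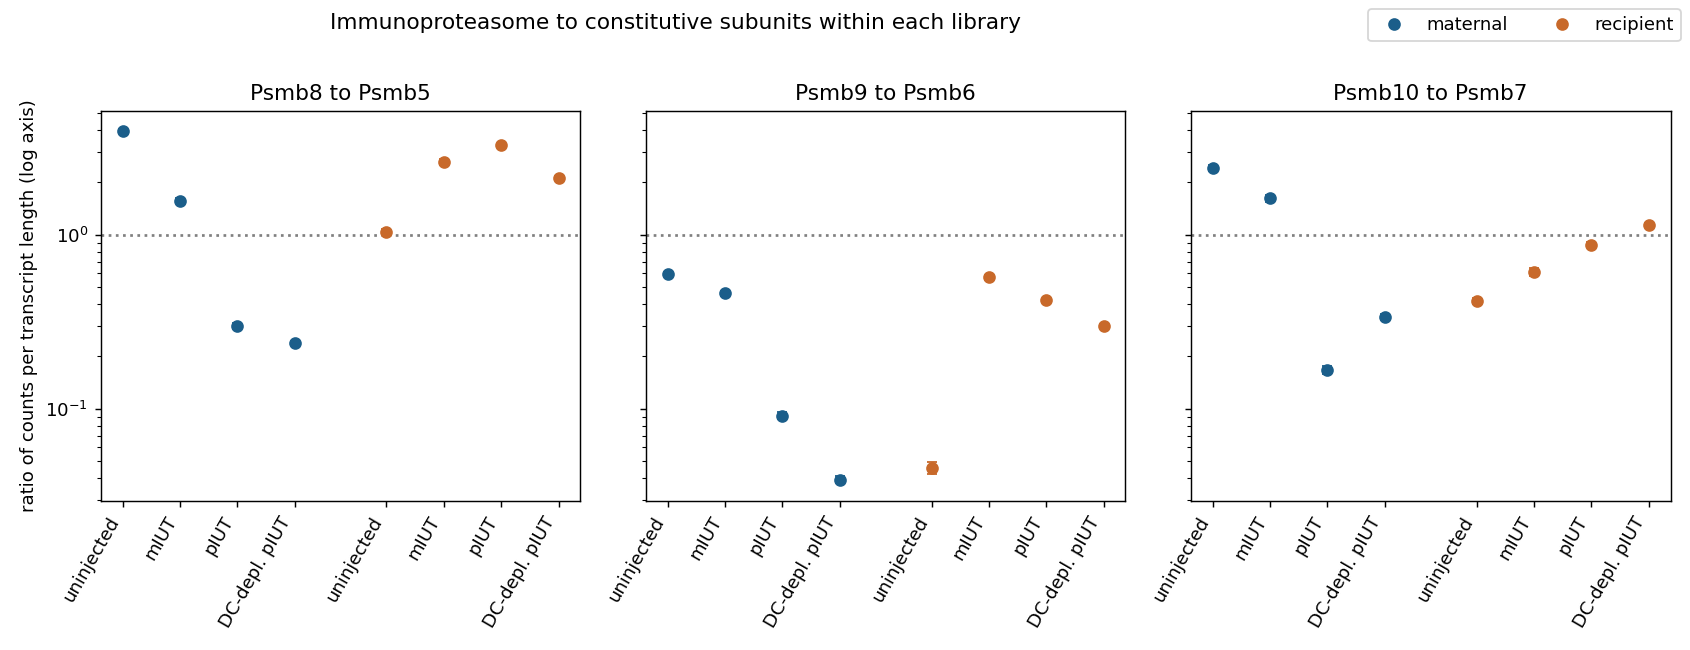
Ratio of immunoproteasome to constitutive subunits per transcript length within each library (vertical log axis, no unit), for trafficked maternal cells in blue and recipient cells in orange, with 95% intervals of the counts, mostly smaller than the points. Psmb8 exceeded Psmb5 (dotted line, ratio of 1) in all 4 recipient libraries but in maternal cells of uninjected and DC control mIUT pups only.

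Nlrc5, the activator of class I promoters, had at most 899 counts in a library. It was at 2.878, 0, 17.77 and 0.6662 CPM in maternal cells and at 0, 9.311, 5.713 and 3.338 CPM in recipient cells, from 112, 0, 899 and 22 counts and 0, 267, 258 and 183 counts. Both libraries at 0 are those with the most missing genes, and genes that most cells use, such as Nfya and Creb1, were also at 0 in maternal DC control mIUT, so Nlrc5 is described only as listed at 0 there. The highest value was in maternal DC control pIUT, a library in which H2-K1, H2-D1, H2-T23 and B2m were the lowest but for DC-depleted pIUT.

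The comparison of DC-depleted with DC control pIUT asks how depletion of maternal DC before the same transplantation goes with these genes. DC were depleted in the dam before birth, and the 7 conventional DC genes on the list were not lower in sum in the libraries of the pups: 34.58 CPM in DC control and 79.28 CPM in DC-depleted pIUT in maternal cells (3 over 2-fold higher and 2 lower), and 38.42 and 70.85 CPM in recipient cells (2 higher and 0 lower). Above 3 counts were 3 and 4 of the 7 in maternal cells and 7 and 7 in recipient cells. In maternal cells 4 of the 10 were over 2-fold lower (27.8% of all 25066 genes were, and 31.7% of the 8508 genes with a mean of at least 10 CPM) and 1 was over 2-fold higher (30.6% and 33.3%). The lower genes were H2-D1, H2-Q7, Tapbp and Nlrc5, and the higher gene was Psmb8. The ratio of DC-depleted to DC control pIUT was 0.4058 for H2-D1 (95% interval 0.3975 to 0.4142), 0.3778 for Tapbp (0.3609 to 0.3952) and 2.529 for Psmb8 (2.415 to 2.648). Nlrc5 stood at 0.03749 times its DC control level (0.02337 to 0.05711), and H2-Q7, on 10 counts, at 0.01841 times (0.008796 to 0.03403). The sum of H2-Q6 and H2-Q7, which share reads, was at 0.087 times, and that with H2-Q5 added at 0.0866 times. B2m was at 0.629 times (0.6125 to 0.6459), within 2-fold, and the heavy chain sum was lower by a log2 ratio of -1.09. The median log2 fold change of the 10 genes was -0.83, and that of all genes was 0. These counts move with the scaling: with library size alone or with hemoglobin genes left out of the scaling, 8 of the 10 were over 2-fold lower and 0 higher (of all genes 32.3% were lower and 25.9% higher with library size alone, and 31.0% and 27.3% without hemoglobin genes). With upper quartile scaling 2 were lower and 2 higher (22.5% and 38.2% of all genes), with H2-K1, H2-T23 and B2m at log2 fold changes of 0.05, 0.18 and 0.18. Markers of other cells moved between the same libraries: 8 of 10 granulocyte genes were over 2-fold higher in DC-depleted pIUT (1686 to 10920 CPM in sum), and the leukocyte genes, with 3 of 5 over 2-fold lower, summed to 1560 and 573.5 CPM. Their part in the result was not tested.

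In recipient cells the median log2 fold change of the 10 genes in DC-depleted against DC control pIUT was -0.61, against 0 for all genes. Only 1, Tap1, was over 2-fold lower and 0 were over 2-fold higher (15.5% and 25.8% of all genes, and 7.11% and 10.7% of those of at least 10 CPM). Tap1 was at 0.4937 times its DC control level (0.4786 to 0.5092). Tap2 was at 0.5329 times (0.5157 to 0.5506), H2-T23 at 0.5515 times (0.5362 to 0.5672) and Psmb8 at 0.6647 times (0.6538 to 0.6759). The smallest difference was that of H2-Q7, at 0.8593 times (0.7909 to 0.9336), which was higher by a log2 fold change of 0.01 when scaled by library size alone, while the sum of H2-Q6 and H2-Q7 was at 0.664 times. With DESeq2 size factors, library size alone or hemoglobin genes left out, 0 genes were over 2-fold lower (15.3%, 13.4% and 14.3% of all genes were), and with upper quartile scaling 2 were (16.8%). Between the same libraries the T cell genes summed to 3863 CPM in DC control and 942.2 CPM in DC-depleted pIUT, with all 10 over 2-fold lower, and the leukocyte genes to 5712 and 3930 CPM. Granulocyte genes went from 48470 to 20850 CPM (3 of 10 over 2-fold higher and 7 lower) and monocyte and macrophage genes from 10830 to 5998 CPM (7 of 9 higher and 2 lower). Hepatocyte genes went from 76.79 to 1505 CPM, with 8 of 8 over 2-fold higher. The part of these cells in the result was not tested.

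**Figure D3:**
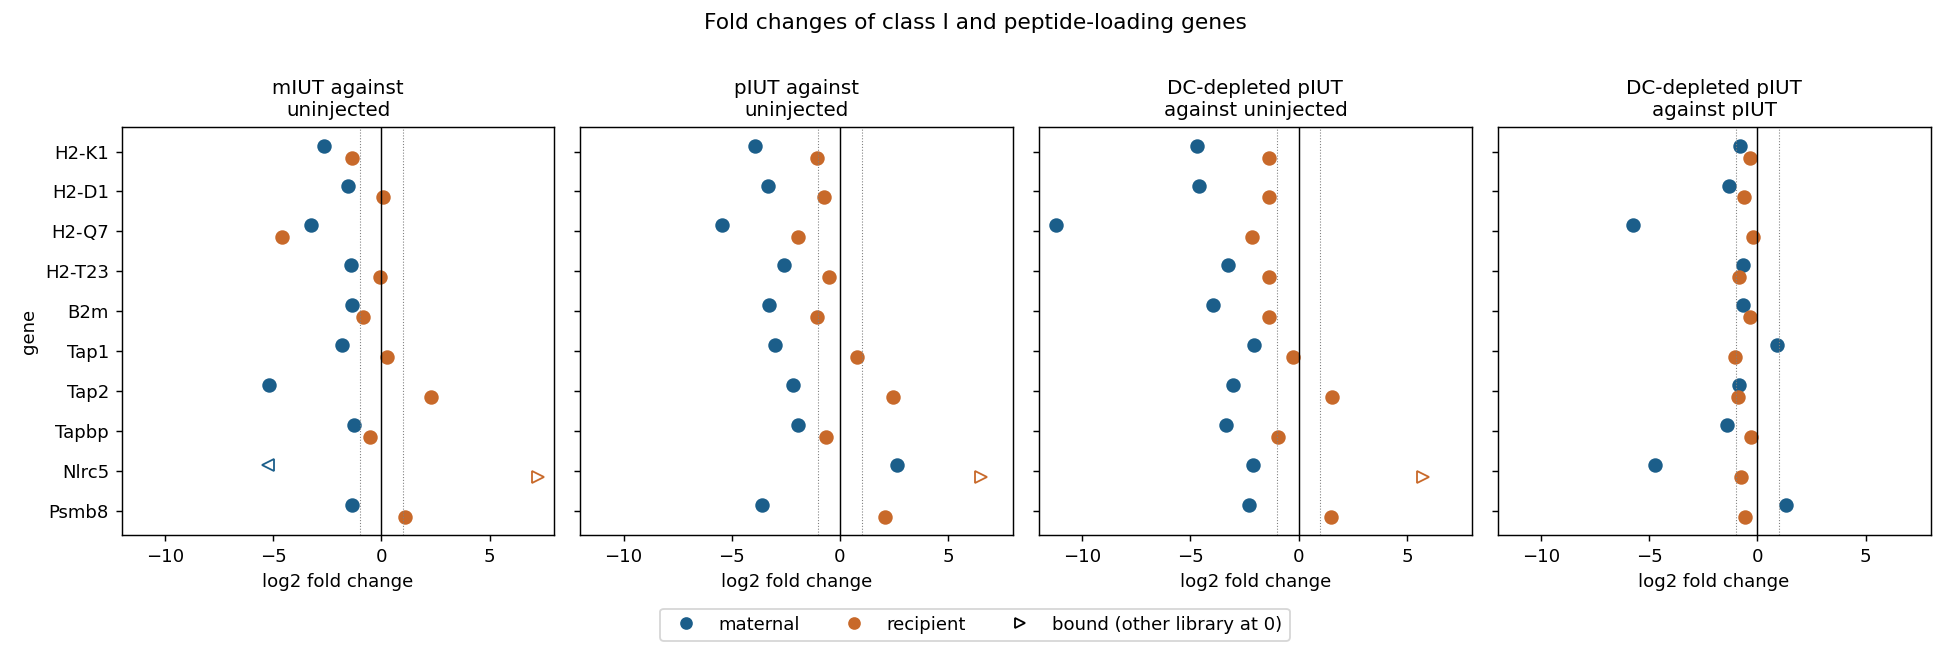
Log2 fold changes of the 10 genes (horizontal axes) in 4 comparisons, for trafficked maternal cells in blue and recipient cells in orange, with dotted lines at 2-fold and open triangles for Nlrc5 where a library lists it at 0 and the 3 counts of the limit of detection were used. In DC-depleted against DC control pIUT, Psmb8 (2.53 times) and Tap1 (1.891 times) lie above 0 in maternal cells, and both lie below 0 in recipient cells (0.6647 and 0.4937 times).

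The 3 comparisons of each origin with uninjected pups share the control library and are given side by side. In maternal cells, 10 of 10 genes were over 2-fold lower in DC control mIUT (32.2% of all genes were, and 34.7% of those of at least 10 CPM), 9 of 10 in DC control pIUT (26.4% and 27.9%) and 10 of 10 in DC-depleted pIUT (27.4% and 33.5%). The exception was Nlrc5, over 2-fold higher in DC control pIUT (log2 fold change 2.62), as were 25.4% of all genes and 24.9% of those of at least 10 CPM. In DC control mIUT and DC-depleted pIUT 0 of the 10 were over 2-fold higher, against 19.1% and 29.3% of all genes and 25.4% and 30.1% of those of at least 10 CPM. Median log2 fold changes of the 10 genes were -1.69, -3.15 and -3.31 against 0 for all genes. B2m was lower by log2 fold changes of -1.38, -3.30 and -3.97 and H2-D1 by -1.54, -3.33 and -4.63. Nlrc5, counted among the 10 lower genes of DC control mIUT, was listed at 0 there and is given no fold. Maternal DC control mIUT had 4.86% missing genes. The comparison is shared by markers of other cells, some lower and some higher than in uninjected pups. B cell genes summed to 7091, 346.1, 49.68 and 35.34 CPM in maternal cells, with all 8 above 3 counts in the uninjected library and 5, 4 and 5 in the others. T cell genes summed to 2762, 576.1, 157.6 and 423.4 CPM, granulocyte genes to 2433, 168000, 1686 and 10920 CPM and erythroid genes to 91690, 21020, 130700 and 180900 CPM. Their part in the result was not tested.

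In recipient cells the same comparisons were mixed. DC control mIUT had 3 genes over 2-fold higher and 2 lower (38.9% and 19.8% of all genes, and 39.2% and 30.0% of those of at least 10 CPM). DC control pIUT had 3 higher and 3 lower (42.3% and 16.5%, and 36.4% and 23.2%), and DC-depleted pIUT had 3 higher and 5 lower (48.4% and 16.1%, and 34.4% and 22.4%). The higher genes were Tap2, Psmb8 and Nlrc5 in all 3 comparisons, with log2 fold changes of 2.29, 2.47 and 1.56 for Tap2 and 1.08, 2.07 and 1.48 for Psmb8, while Nlrc5, listed at 0 in the uninjected library, is given no fold. Psmb8 in DC control mIUT was within 2-fold with DESeq2 size factors (0.94) and with library size alone (0.54), which leaves 2 higher genes there (38.1% and 36.4% of all genes). H2-K1 and H2-Q7 were over 2-fold lower in all 3, with log2 fold changes of -1.33, -1.06 and -1.38 for H2-K1. B2m joined them in DC control pIUT (-1.05), and B2m, H2-D1 and H2-T23 in DC-depleted pIUT (-1.38, -1.38 and -1.35). In DC-depleted pIUT the median log2 fold change was 0.76 over all genes and 0.21 over those of at least 10 CPM. Each of these values rests on the recipient uninjected library, the library with the most missing genes. Scaled by library size alone, the counts of lower genes were 4, 1 and 1 (23.5%, 15.4% and 13.2% of all genes). Markers of other cells differed between the same libraries: in recipient cells the NK cell genes summed to 46.9, 39.44, 685.7 and 800.3 CPM, the T cell genes to 723.9, 712.8, 3863 and 942.2 CPM, the B cell genes to 1243, 74.42, 224.6 and 282.5 CPM and the hepatocyte genes to 14280, 204, 76.79 and 1505 CPM. Their part in the result was not tested.

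The comparison of pIUT with mIUT in DC controls asks whether the donor goes with a difference. Donor cells of mIUT carry H2K-b, the sort label of maternal cells, and those of pIUT carry H2K-d, that of recipient cells. The libraries of an origin may therefore hold different donor cells in the 2 groups, which was not tested. In maternal cells 7 genes were over 2-fold lower and 2 higher in pIUT (20.9% and 31.0% of all genes, and 28.9% and 32.7% of those of at least 10 CPM). The higher genes were Tap2 (log2 fold change 3.03) and Nlrc5. In maternal DC control mIUT, a library with 4.86% missing genes, Tap2 had 238 counts and Nlrc5 was listed at 0. In recipient cells H2-Q7 alone was over 2-fold higher in pIUT (2.69) and 0 were lower (30.0% and 23.3% of all genes, and 29.8% and 22.8% of those of at least 10 CPM), and the heavy chain sum was lower by a log2 ratio of -0.52. Scaled by library size alone, 4 genes were over 2-fold lower in maternal cells (17.3% of all genes) and 3 higher in recipient cells (38.4%), and with upper quartile scaling 1 was lower in recipient cells (26.3%). Granulocyte genes summed to 168000 CPM in maternal and 274700 CPM in recipient DC control mIUT, against 1686 and 48470 CPM in DC control pIUT. In the same order, erythroid genes summed to 21020 and 210.2 CPM, against 130700 and 40420 CPM. T cell genes summed to 576.1 and 712.8 CPM, against 157.6 and 3863 CPM, and NK cell genes to 261.1 and 39.44 CPM, against 167.2 and 685.7 CPM. The part of these cells in the differences was not tested.

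The order of recipient and maternal cells differed between uninjected and pIUT pups. In uninjected pups recipient cells had 7 genes over 2-fold lower than maternal cells and 0 higher (33.0% and 17.7% of all genes, and 34.5% and 26.3% of those of at least 10 CPM). In DC control mIUT 1 gene was lower and 3 higher (16.3% and 34.7%, and 19.7% and 33.0%). Nlrc5, listed at 0 in recipient uninjected and maternal DC control mIUT cells, is among the 7 lower and the 3 higher genes of these comparisons. In DC control pIUT 1 was lower and 8 higher (21.3% and 31.8%, and 16.3% and 27.1%), and in DC-depleted pIUT 0 were lower and 10 higher (20.4% and 40.2%, and 20.4% and 37.8%). The median log2 fold changes were -1.35, 0.51, 1.33 and 1.90, against 0, 0, 0 and 0.12 for all genes. In DC-depleted pIUT the ratios went from 1.11 for Tap1 to 6.12 for H2-Q7 on the log2 scale. The counts of higher genes were 5 in DC control pIUT with DESeq2 size factors (28.9% of all genes) and 5 in DC-depleted pIUT with upper quartile scaling (32.5%). The order of the leukocyte gene sum differed as well: it was 3950 CPM in recipient and 8559 CPM in maternal uninjected cells, and 3930 and 573.5 CPM in DC-depleted pIUT.

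Maternal and recipient cells of a group came from pups of that group, so origin was also tested over the 4 groups, a fit added after the data were seen. Whether cells were pooled before or after the sort was not given in the sources used here. The model held treatment group and origin as additive terms (edgeR's quasi-likelihood test, 3 residual degrees of freedom), so that any difference in the effect of origin between groups counted as error. None of the 10 genes passed an adjusted p of 0.05, and 0 of 25066 genes (0%) did. At an unadjusted p of 0.05, 0 of the 10 and 409 of all genes (1.63%) passed. DESeq2 called 0 of the 10 and 269 genes at the adjusted threshold. Tap2 had the largest log2 difference of recipient over maternal cells (1.82, higher in 3 of 4 groups, adjusted p = 1 by edgeR), and B2m the smallest (0.15, higher in 2 of 4 groups, adjusted p = 1 by edgeR). Without the uninjected group 3 of the 10 and 678 of 24363 genes (2.78%) had an unadjusted p under 0.05 by edgeR, and 0 of the 10 an adjusted one.

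Because leukocyte RNA differed this much, the 10 genes were also set beside the 5 leukocyte genes within each library, a choice made after values were seen. B2m to the leukocyte genes was 0.4298, 0.2019, 0.2394 and 0.4095 in maternal cells and 0.4082, 0.07683, 0.1361 and 0.1573 in recipient cells. H2-D1 to the same genes was 1.014, 0.4256, 0.5554 and 0.6128 in maternal cells and 1.027, 0.3618, 0.4233 and 0.3957 in recipient cells. On this scale maternal and recipient uninjected libraries were close, the transplanted libraries were lower than the uninjected library of their origin for these 2 genes, and maternal DC-depleted pIUT was above maternal DC control pIUT, the reverse of the order in CPM. For both, recipient transplanted libraries were below the maternal ones of the same group, also the reverse of CPM in both pIUT groups. The other genes did not all follow. Relative to the leukocyte genes, maternal mIUT had 10 of the 10 below its uninjected library, pIUT of DC controls 7 and pIUT after DC depletion 4. Of all genes with a count in either library, 55.3%, 24.8% and 18.9% were below it, on a scale whose denominator went from 8559 CPM in uninjected cells to 573.5 CPM after DC depletion. In the last of these H2-T23, Tap1, Tap2, Tapbp, Psmb8 and Nlrc5 were above it, and Psmb8 was at 0.258 there against 0.08369 in maternal uninjected cells, and Tap1 at 0.09488 against 0.02674. In recipient cells 8, 6 and 7 were below the uninjected library (49.6%, 39.6% and 31.2% of all genes), and Tap2 was above it in all 3 groups. The leukocyte genes were not even among themselves: in maternal DC-depleted pIUT Ptprc was at 2.635 CPM and Coro1a at 328.1 CPM.

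**Figure D4:**
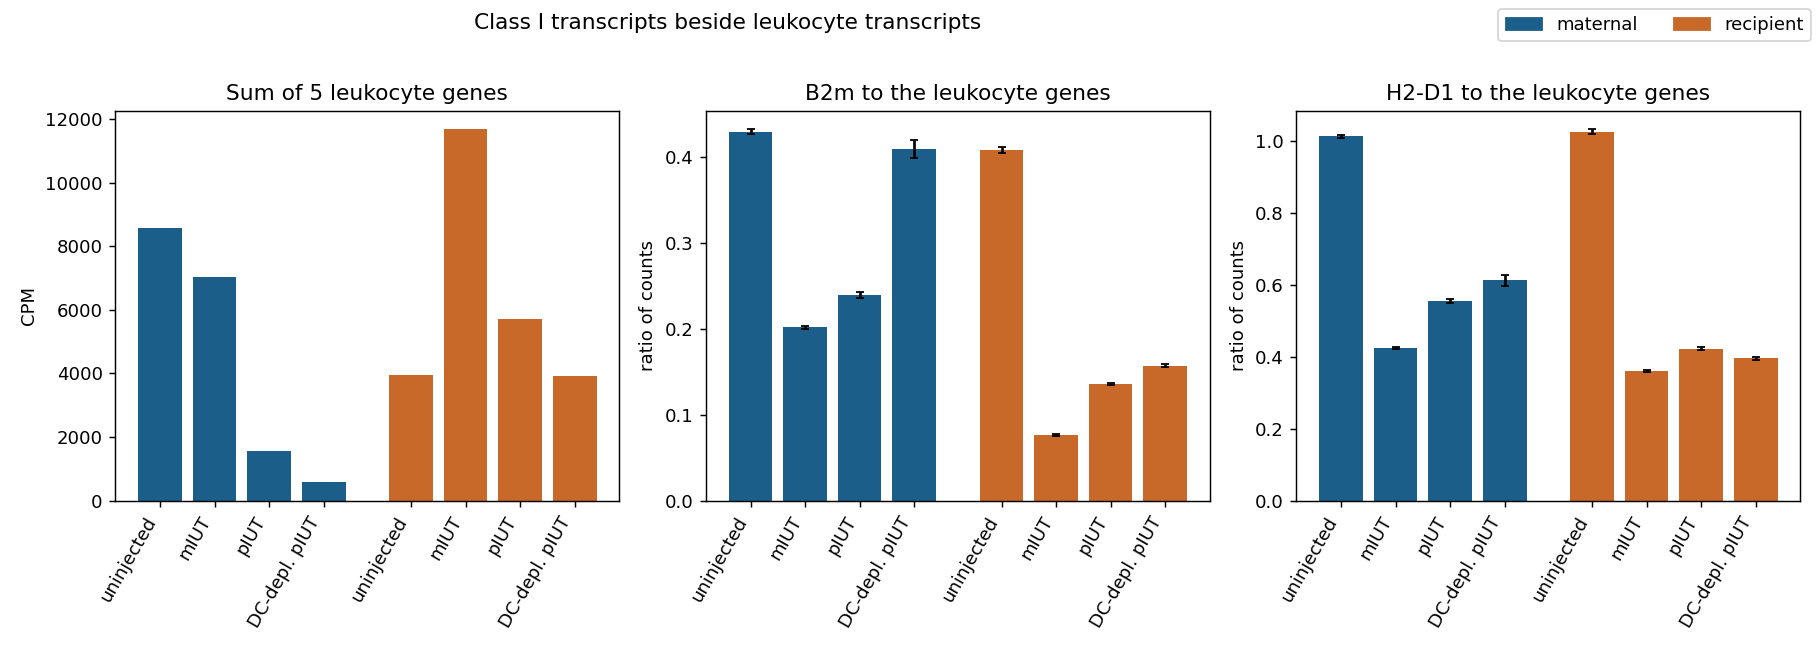
Sum of 5 leukocyte genes in CPM (left), and counts of B2m (middle) and H2-D1 (right) divided by the counts of those genes within each library, for trafficked maternal cells in blue and recipient cells in orange, with 95% intervals of the ratios. Both uninjected libraries stand near 0.4298 and 0.4082 for B2m, and recipient transplanted libraries at 0.1573 or below.

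Other genes of the pathway were counted as lists. Beside each count stands the share of all genes, 30.6% over 2-fold higher and 27.8% lower for maternal DC-depleted against DC control pIUT, and 25.8% higher and 15.5% lower for recipient cells. Of 12 other measured heavy chains, 4 were over 2-fold higher and 5 lower in maternal DC-depleted against DC control pIUT, and 0 were higher and 5 lower in recipient cells. H2-T22 was at 128.9 CPM in recipient DC control pIUT and 37.43 CPM in recipient DC-depleted pIUT. H2-T3, which encodes the thymus leukemia antigen, was at 78.49 and 6.549 CPM in the same libraries. Of 10 genes of peptide loading and trimming, 1 was higher and 3 lower in maternal cells and 1 higher and 0 lower in recipient cells. The chaperone Calr, the higher gene in recipient cells, was at 385.2 CPM in DC control and 819.1 CPM in DC-depleted pIUT. Of 6 genes of the immunoproteasome and its PA28 activator, 3 were higher in maternal cells and 0 lower, and 0 passed 2-fold in recipient cells. All 3 constitutive subunits were over 2-fold higher in maternal cells and 0 in recipient cells.

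Of 15 genes of class I transcription, 4 were over 2-fold higher and 4 lower in maternal DC-depleted against DC control pIUT, near the 30.6% and 27.8% of all genes, and 1 higher and 2 lower in recipient cells, against 25.8% and 15.5%. Irf1, an interferon-induced activator of class I and loading genes, was at 97.88, 67.43, 25.52 and 10.72 CPM in maternal cells and at 78.31, 91.92, 215 and 41.96 CPM in recipient cells. It was lowest in DC-depleted pIUT within each origin and, like Tap1, Tap2 and Psmb8, highest among recipient libraries in DC control pIUT. Of 10 interferon-stimulated genes, 0 were over 2-fold higher in DC-depleted against DC control pIUT in either origin, with 6 lower in maternal (27.8% of all genes) and 4 in recipient cells (15.5%). In maternal DC-depleted pIUT 5 of the 10 were listed at 0, and in maternal DC control pIUT 2. In recipient cells the list summed to 445.7, 506.9, 355.7 and 192.6 CPM, so unlike Irf1 it was not highest in DC control pIUT. Gbp2, an interferon-induced GTPase, was at 96.07 CPM in recipient DC control pIUT and 20.96 CPM in recipient DC-depleted pIUT.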

How the data were processed

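RNA of trafficked maternal cells and recipient cells was measured in 8 pooled libraries, 1 per group. The authors deposited estimated counts per gene, not normalized, whose file is named for salmon in the nf-core pipeline, while the paper's methods name featureCounts. The genome was GRCm39 with GENCODE annotation, and the submitters' processing notes list bcl2fastq and StringTie. MiXCR clonotype tables of the series were not used here. Columns were assigned to libraries by the deposited key, and 0 columns were without a sample.

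Estimated counts were rounded to whole numbers. B2m, Nlrc5 and Psmb8 had whole counts (within 0.002) in all 8 libraries. Genes without any count were dropped, and the remaining 25066 were fitted in edgeR 4.0.16 (R 4.3.3) with TMM normalization, and log2 fold changes came from its exact test at the dispersion of 0.4 used by the study and the default prior count of 0.125. No p value was computed between treatment groups. Origin was tested over the 4 groups with edgeR's quasi-likelihood test (treatment group and origin as additive terms, TMM, Benjamini-Hochberg adjustment over all genes), a fit added after seeing the data and tested on simulated data. A call is a difference over 2-fold. Poisson intervals, and conditional binomial intervals for ratios, are at the 95% level and leave out PCR copies, as there are no molecular identifiers, and the error of dividing reads among genes. A count of 3 was taken as the limit of detection of a library.

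Positions, lengths and start sites came from a GENCODE annotation of GRCm39, which held 97.99% of the gene identifiers. Promoters were read from the genome. Pattern distances used log2(CPM + 0.5), centred on each gene. The genes named are the 10 chosen, the extremes of each list, the 5 nearest patterns to B2m (those to Nlrc5, listed at 0 in 2 libraries, are left out), and list genes named after their values were seen. Some named genes are not reported here. The 10 genes and the lists were chosen with earlier results of these data known, and the ratios within libraries were chosen after values were seen. Of 176 list genes 3 were not found by symbol. In a test on simulated data with 200 altered genes among 25066, 100% of the altered genes had the right direction and the median absolute error was 0.0502 on the log2 scale. The simulated counts were Poisson draws from a common profile, so scaling between libraries that differ in cell content was not tested. The alternatives were DESeq2 1.42.0 size factors, library size alone, upper quartile scaling, a prior count of 5, a filter of 10 counts, no filter, and 2 chosen after seeing the data: scaling without hemoglobin genes and scaling without the 2 libraries with the most missing genes. Tables were made with pandas 2.3.3 and scipy 1.17.1 in Python 3.11.15 and plots with matplotlib 3.10.9.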

Additional observations from a re-analysis of the deposited data

Results flagged for a closer look

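For 3 of the 9 genes other than Nlrc5, the 2 origins moved in opposite directions under the same comparison, by over 2-fold in each. Nlrc5, listed at 0 in the recipient uninjected and maternal DC control mIUT libraries, was not counted. Of the genes above 3 counts in the 4 libraries compared, 11.9%, 14.7% and 12.4% moved in opposite directions in this way for DC control mIUT, DC control pIUT and DC-depleted pIUT against uninjected pups, and 7.96% for DC control pIUT against DC control mIUT, beside 2, 2, 2 and 1 of the 9 genes. For DC-depleted against DC control pIUT 0 of the 10 did, and 7.21% of the genes above 3 counts. These differences between origins were not tested, since each group is 1 library. Tap2 against uninjected pups had log2 fold changes of -5.18 in maternal and 2.29 in recipient cells for DC control mIUT, of -2.16 and 2.47 for DC control pIUT, and of -3.02 and 1.56 for DC-depleted pIUT. Psmb8 had log2 fold changes of -1.38 and 1.08, of -3.61 and 2.07, and of -2.28 and 1.48 in the same comparisons. All of these share the uninjected libraries, and the recipient uninjected library had the most missing genes, with Tap2 at 1787 counts and Psmb8 at 8008 counts. H2-Q7 in DC control pIUT against DC control mIUT had log2 fold changes of -2.21 in maternal and 2.69 in recipient cells, and rests on 110 counts in recipient DC control mIUT.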

How the results depend on the processing

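Treatment groups were not tested, since both libraries of a group come from pups of that group and are not replicates of a treatment. Origin, paired over the 4 groups with treatment group as the block, called 0 of the 10 genes by edgeR, and 0 by DESeq2, with library size alone, with a filter of 10 counts and without each group in turn. Of 140 log2 fold changes of the 10 genes, 95 were over 2-fold. None of these 95 changed sign under an alternative that covered it. The largest shift by another scaling was 0.869 on the log2 scale, too small to reverse a value over 2-fold. A larger prior count only draws values toward 0. The kept signs are therefore no evidence that these values are robust. Of the values within 2-fold, 1 changed sign with DESeq2 size factors, 8 with library size alone and 5 with upper quartile scaling. With a prior count of 5, a filter of 10 counts, no filter or scaling without hemoglobin genes 0 did. Scaling without the 2 libraries with the most missing genes was possible for 70 of the 140 values and 46 of the 95. It moved no value and says nothing on those libraries. Counts of genes over 2-fold moved with scaling, and the cause was not tested. Those that moved by over 1.5 times are given first. With library size alone, maternal DC-depleted against DC control pIUT had 0 genes higher and 8 lower, maternal pIUT against mIUT 4 lower, recipient pIUT against mIUT 3 higher, recipient DC-depleted against DC control pIUT 0 lower, and against recipient uninjected cells the counts of lower genes were 4 for mIUT, 1 for pIUT of DC controls and 1 for pIUT after DC depletion. With upper quartile scaling, maternal DC-depleted against DC control pIUT had 2 higher and 2 lower, recipient DC-depleted against DC control pIUT 2 lower, recipient pIUT against mIUT 1 lower, and recipient against maternal DC-depleted pIUT 5 higher. With DESeq2 size factors, recipient against maternal DC control pIUT had 5 higher, and recipient DC-depleted against DC control pIUT 0 lower. Without hemoglobin genes in the scaling, maternal DC-depleted against DC control pIUT had 0 higher and 8 lower, and recipient DC-depleted against DC control pIUT 0 lower. Smaller changes follow, with the share of all genes in brackets. With DESeq2 size factors, maternal DC-depleted against DC control pIUT had 5 lower (29.0%), and recipient mIUT against uninjected cells 2 higher (38.1%). Recipient DC-depleted pIUT had 6 lower against uninjected cells (17.0%) and 8 higher against maternal DC-depleted pIUT (38.9%). With library size alone, 2 were higher for recipient mIUT against uninjected cells (36.4%) and 6 for recipient against maternal DC control pIUT (29.9%). With upper quartile scaling 6 were lower for recipient DC-depleted pIUT against uninjected cells (17.9%). Without hemoglobin genes 5 were lower for maternal pIUT against mIUT (19.3%) and 6 higher for recipient against maternal DC control pIUT (29.2%). Over all genes, the shares over 2-fold for the larger changes, in the same comparisons and directions, were 13.2% to 38.4% with library size alone, 16.8% to 38.2% with upper quartile scaling, 15.3% to 28.9% with DESeq2 size factors and 14.3% to 31.0% without hemoglobin genes. Counts were low for H2-Q7 in maternal DC-depleted pIUT, with 10 counts, and for Nlrc5, with 0 to 899 counts in a library and both zeros in the 2 libraries of highest total count.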
